A study of Mus musculus with 12 samples.

Results

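The genes described here encode the cellular oxygen sensor: the α subunits of hypoxia-inducible factor (HIF), Hif1a, Epas1 and Hif3a, their dimerization partners Arnt and Arnt2, the prolyl hydroxylases Egln1, Egln2 and Egln3, the ubiquitin ligase subunit Vhl and the asparaginyl hydroxylase Hif1an. They were chosen by name, though with earlier results of these data known. All 10 were found among the 45706 genes of the deposited expression table, and 9 were expressed well enough to be tested. They were measured by RNA-seq in BN1 cells, a murine hepatoblastoma (HB) line from a tumor raised in FVB/N mice with mutant forms of β-catenin and NRF2. Every group carried the same background, namely targeted Cdkn2a and an EGFP reporter driven by the Tie2 (Tek) promoter, from stable clones that had been pooled. UN cells were unsorted and grown at 21% oxygen, and UH cells were the same unsorted population after 2 days at 1% oxygen. SN cells were those with the highest EGFP after hypoxia, isolated by flow sorting and grown on at 21% oxygen for about 10 days. SH cells were SN cells that went back to 1% oxygen for 2 days. Sorted cells (SN and SH) thus differed from unsorted ones by the sort, the earlier hypoxia and the further culture together. The effects of these cannot be told apart. The sample titles call all 4 groups EGFP-positive, although UN and UH were described as unsorted. Each group had 3 libraries, named here UN1 to SH3. The labels do not say whether these were separate cultures, so the p-values measure only the spread between these libraries.

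The sensor works by modification of the HIF-α protein. With oxygen present, prolyl hydroxylases modify HIF-α, VHL recognizes the modified protein and a ligase built on elongins, CUL2 and RBX1 marks it for destruction, while the asparaginyl hydroxylase known as FIH blocks its binding to the coactivators p300 and CBP. When oxygen is scarce HIF-α escapes, pairs with ARNT and activates genes whose regulatory regions hold the core sequences ACGTG or GCGTG. Egln1 and Egln3 are themselves well-known HIF target genes, which makes the pathway a feedback loop, and the first step of control acts on protein, which mRNA does not show.

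Levels are given in TPM, transcripts per 1000000, which is corrected for transcript length, so that levels of different genes can be set side by side. A gene passed when its limma adjusted p was below 0.05, and was called when it also differed by more than 2-fold on the scale of log2(TPM + 1). Log2 fold changes are on that scale. Values with decimals written with the word fold alone, as in 8.63-fold, are ratios of mean TPM. These can differ from the log2 fold changes, mostly for low genes. Where a gene rose or fell by a number without that word, the number is a log2 fold change. Library UN1 stood apart from UN2 and UN3, with a summed TPM of 5459 for 14 fibroblast and stellate markers against 1643 and 1499. The same sum was 5241 to 7553 in UH, 207 to 220 in SN and 65.4 to 86.9 in SH, and 10 of the 14 markers had a mean of at least 1 TPM. The 19 endothelial markers summed to 23.1 to 55.9 TPM in UN, 63.3 to 78.7 in UH, 10.4 to 11.4 in SN and 23.8 to 33.5 in SH. Of these, 6 had a mean of at least 1 TPM and 9 were under 0.1 TPM. The 10 tested ones went both ways. In SN vs UN 3 passed as higher and 2 as lower (13.0% and 20.9% of all genes tested). In SH vs UH 6 and 3 did (28.3% and 13.4%). The 10 immune markers summed to 5.30 to 10.1 TPM in UN, 21.6 to 22.8 in UH, 9.91 to 14.7 in SN and 59.5 to 63.6 in SH. Of 16 hepatoblast and hepatocyte markers, which summed to 132 to 314 TPM in UN, 186 to 225 in UH, 119 to 169 in SN and 99.99 to 180 in SH, 8 had a mean of at least 1 TPM, whereas Ttr was at 0 in 9 libraries and Epcam in every SN and SH library. Fewer cells of a type and less RNA per cell cannot be told apart in such bulk samples.

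The genes that moved most in low oxygen encode enzymes and the recognition subunit of the sensor. Egln1, Egln3 and Vhl rose in unsorted and in sorted cells, by 8.63-, 5.60- and 4.80-fold in UH vs UN and by 5.90-, 7.95- and 3.19-fold in SH vs SN. Arnt2 fell in both, and Egln2 fell in SH vs SN. Hif1a, Epas1, Arnt and Hif1an did not pass the test in either hypoxia comparison. Between sorted and unsorted cells the order was different. Hif1a, Epas1 and Egln3 were lower and Arnt2 was higher in sorted cells, both in normoxia (SN vs UN) and in hypoxia (SH vs UH). In UH vs UN, 3 of the 9 tested genes passed as higher, 1 passed as lower, 3 were called and 4 had libraries that did not overlap between the groups, where the same held for 13.0%, 33.5%, 17.2% and 51.1% of all 18909 genes tested. In SH vs SN the counts were 3, 2, 4 and 6, against 21.5%, 19.5%, 12.5% and 56.8% of all genes. In SN vs UN they were 2, 3, 3 and 7, against 13.0%, 20.9%, 10.8% and 49.0%. In SH vs UH they were 1, 5, 4 and 6, against 28.3%, 13.4%, 13.0% and 51.7%. Groups that did not overlap were thus common over all genes. Each comparison of sorted with unsorted cells shares a group with each hypoxia comparison, so these counts are not independent of each other. Without UN1 or without SH3 the same numbers of genes passed in both hypoxia comparisons.

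**Figure D1:**
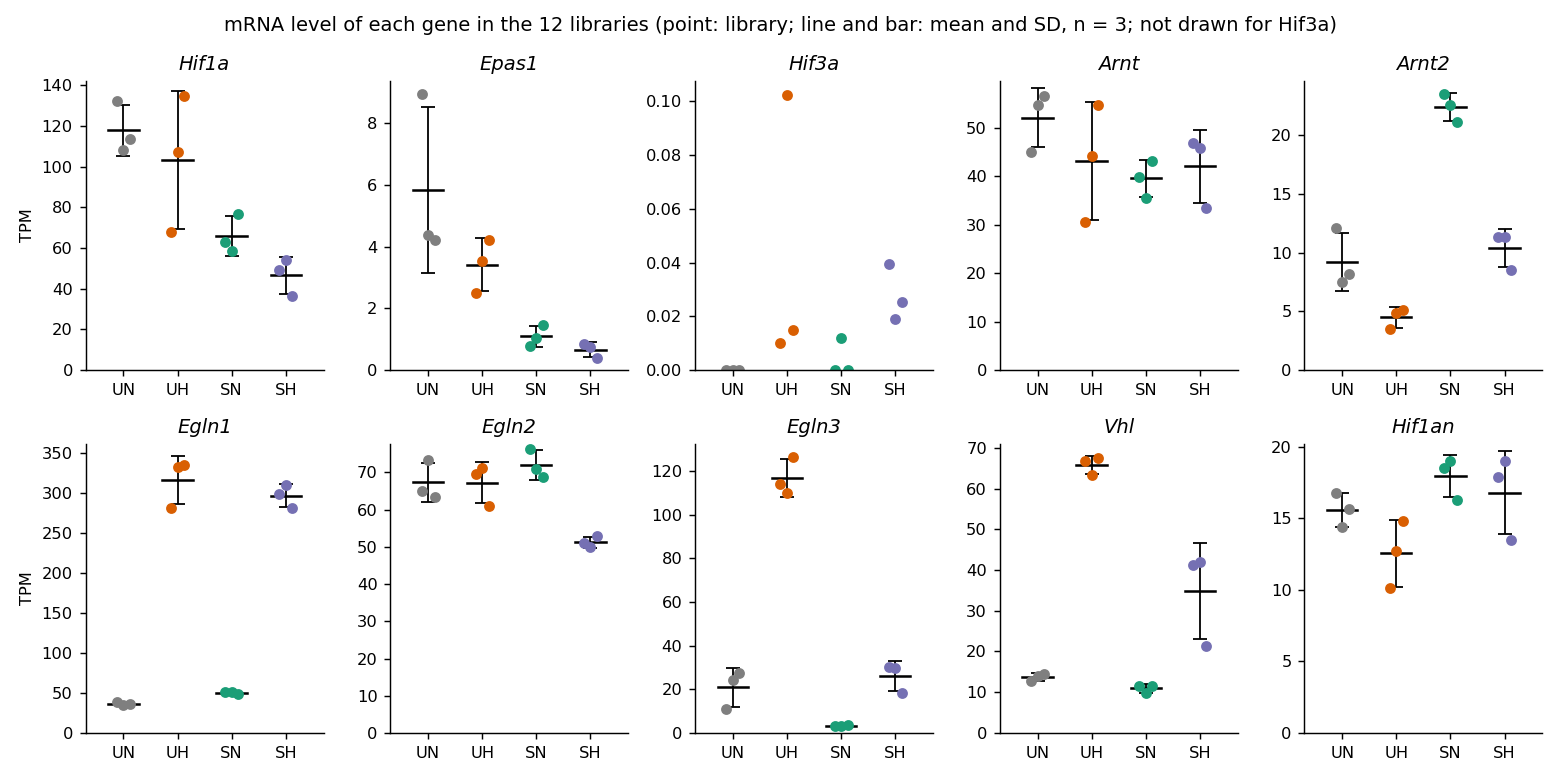
TPM (vertical axes, linear from 0) of the 10 genes in UN, UH, SN and SH cells; each point is a library, and horizontal lines and bars are the mean and SD of 3 libraries, left out for Hif3a. Egln1 stood at 281 to 335 TPM in hypoxic and at 35.2 to 51.2 TPM in normoxic libraries, Arnt2 was highest in SN, and Hif1a and Epas1 were lowest in SH.

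Hif1a (chr12:73901375-73947530, GRCm38, plus strand) encodes HIF-1α, the subunit that is broadly expressed. Its mRNA was at 132, 108 and 114 TPM in the UN libraries, 67.6, 107 and 135 in UH, 62.8, 58.3 and 76.9 in SN, and 49.4, 53.9 and 36.4 in SH. UH spanned the whole range of the unsorted cells, and each sorted library with the exception of SN3 lay below each unsorted one. UH vs UN gave −0.24 on the log2 scale (standard error 0.225, adjusted p = 0.420), which was 0.11 with median-of-ratios scaling and 0.03 without UH1. In SH vs SN, where the libraries did not overlap, it was −0.50 (adjusted p = 0.0969), and the adjusted p became 0.0498 with median-of-ratios scaling. Hif1a was lower in sorted cells by 0.83 on the log2 scale in SN vs UN (log2 fold change −0.83, adjusted p = 0.0138) and by more than 2-fold in SH vs UH (log2 fold change −1.09, adjusted p = 0.00228). Without UH3 or SH3 the SH vs UH value was under 2-fold (log2 fold changes −0.88 and −0.93), though it still passed. The SN vs UN difference did not pass without SN2 (adjusted p = 0.0602). An antisense transcript, Gm15283, overlaps Hif1a on the other strand and averaged 0.669 TPM.

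Epas1 (chr17:86753700-86833410, plus strand) encodes HIF-2α, which is prominent in endothelium. It stood at 8.93, 4.36 and 4.22 TPM in UN, 2.49, 3.54 and 4.22 in UH, 0.788, 1.06 and 1.46 in SN, and 0.864, 0.755 and 0.387 in SH. Every sorted library was below every unsorted one. Mean Epas1 TPM was 5.30-fold lower in SN than in UN and 5.11-fold lower in SH than in UH. On the scale of log2(TPM + 1), limma gave −1.65 (standard error 0.258, adjusted p = 5.02e-04) and −1.40 (adjusted p = 0.00115). Without UN1, the library with the highest Epas1, the SN vs UN value was −1.34 (adjusted p = 5.50e-04). The fibroblast marker sum was also lower in sorted than in unsorted cells by both comparisons. Within UN it was highest in UN1, as was Epas1. Between UN and UH the 2 went opposite ways. The mean fibroblast sum was 2867 TPM in UN and 6491 TPM in UH, and mean Epas1 was 5.83 and 3.42 TPM. The endothelial sum was lower in sorted cells too, but its 10 tested markers went both ways. In SN vs UN 3 passed as higher and 2 as lower, and in SH vs UH 6 and 3. Over all genes 13.0% and 20.9% passed in SN vs UN and 28.3% and 13.4% in SH vs UH. The part of these markers in the Epas1 difference was not tested. Hypoxia gave log2 fold changes of −0.58 in UH vs UN (adjusted p = 0.0865) and −0.33 in SH vs SN (adjusted p = 0.342). Epas1 made up 4.60% ± 1.51 (SD, n = 3) of the summed TPM of the α subunits in UN, 3.26% ± 0.267 in UH, 1.63% ± 0.337 in SN and 1.38% ± 0.333 in SH, so Hif1a supplied nearly all α-subunit mRNA in each group.

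Hif3a (chr7:17031507-17062427, minus strand) encodes HIF-3α, whose shorter isoforms can oppose the other α subunits. It was listed at 0 in all UN libraries and in SN1 and SN3, and at 0.0119 TPM in SN2. The UH libraries held 0.0101, 0.102 and 0.0150 TPM and the SH libraries 0.0396, 0.0192 and 0.0252 TPM. Hif3a was therefore above 0 in all 6 hypoxic libraries and in 1 of 6 normoxic libraries, at levels too low to be tested.

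Arnt (chr3:95434388-95497240, plus strand) encodes HIF-1β, the usual partner of HIF-α and of the aryl hydrocarbon receptor. It varied little. Its TPM was 52.1 ± 6.15 (SD, n = 3) in UN, 43.2 ± 12.2 in UH, 39.6 ± 3.83 in SN and 42.0 ± 7.47 in SH, and it did not pass in any comparison, with log2 fold changes from −0.39 in SN vs UN (adjusted p = 0.161) to 0.07 in SH vs SN (adjusted p = 0.813). The UH libraries were at 30.5, 44.2 and 54.8 TPM and spread more widely than the 4 group means.

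Arnt2 (chr7:84246278-84410176, minus strand), the paralog best known from neurons and kidney, behaved differently from Arnt. It stood at 12.05, 7.46 and 8.19 TPM in UN and 3.51, 4.82 and 5.16 in UH. In sorted cells it was at 23.5, 22.5 and 21.1 TPM in SN and 11.3, 11.3 and 8.56 in SH. Neither hypoxic group overlapped its normoxic group, and the SN libraries were above all others. Low oxygen lowered Arnt2, in unsorted cells (log2 change −0.88, standard error 0.187, adjusted p = 0.00221) as well as in sorted ones (log2 fold change −1.04, adjusted p = 9.26e-04). It was 2.42-fold higher in SN than in UN (log2 fold change 1.22, adjusted p = 4.41e-04) and 2.31-fold higher in SH than in UH (log2 fold change 1.06, adjusted p = 8.66e-04). Some of these lie close to 2-fold, and without SH3 the SH vs SN value was −0.92 (adjusted p = 0.00425). The share of Arnt2 in the summed TPM of Arnt and Arnt2 was 15.3% ± 5.07 (SD, n = 3) in UN, 9.59% ± 0.890 in UH, 36.2% ± 3.07 in SN and 19.9% ± 0.445 in SH. Within UN, the share was 21.1% in UN1, 12.01% in UN2 and 12.6% in UN3. No pair of groups compared here overlapped in this share, and each exact two-sided permutation test gave p = 0.1, the smallest that 3 libraries against 3 allow. The ratio of α-subunit to β-subunit TPM was 2.03 ± 0.378 in UN and 2.21 ± 0.133 in UH, and 1.08 ± 0.119 in SN and 0.900 ± 0.0490 in SH (SD, n = 3).

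**Figure D2:**
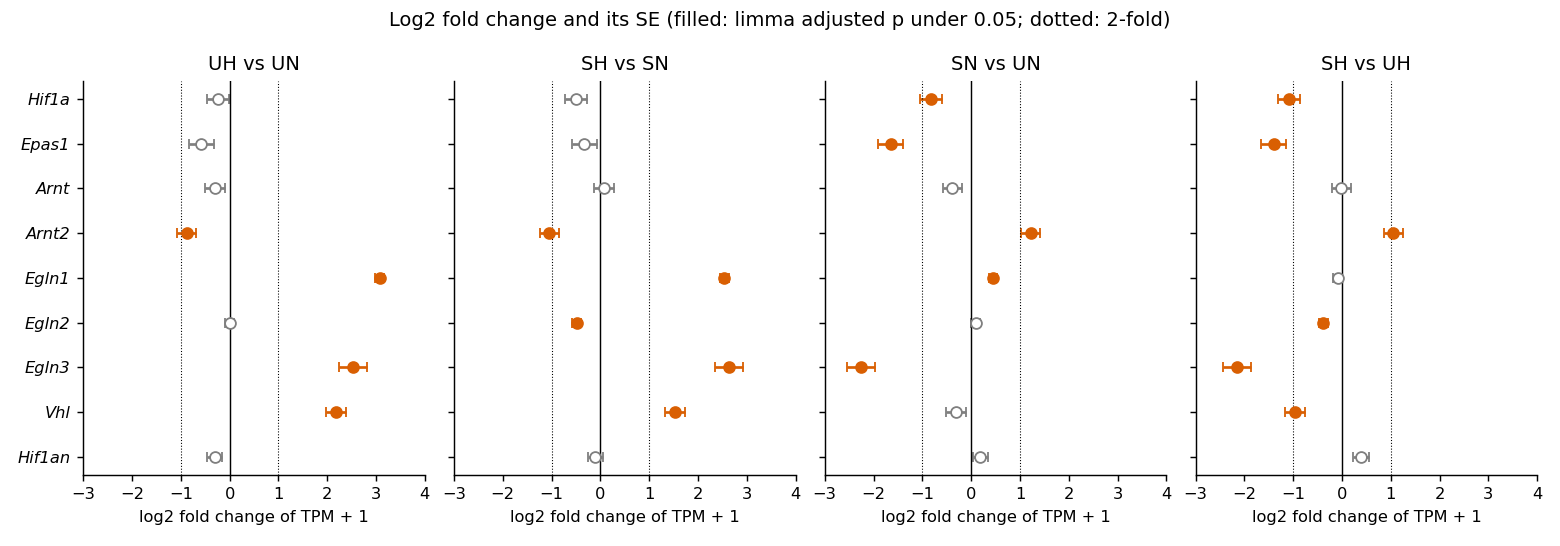
Log2 fold change of TPM + 1 (horizontal axes) with its standard error for the 9 tested genes in the 4 comparisons, filled where the limma adjusted p was below 0.05; dotted lines mark 2-fold. Egln1, Egln3 and Vhl lie to the right in both hypoxia comparisons, while in the comparisons of sorted with unsorted cells Egln3, Epas1 and Hif1a lie to the left and Arnt2 to the right.

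The promoters of the 3 genes that rose in both hypoxia comparisons, Egln1, Egln3 and Vhl, and of Egln2, a paralog that did not, are shown because the HIF core sequences in them differ. Each window runs from 250 bases before to 50 bases after a RefSeq start site (GRCm38.p6), is written 5′ to 3′ on the strand of the gene, and has every ACGTG and GCGTG, read on both strands, in capitals.
Egln1 chr8:124949205-124949504, minus strand: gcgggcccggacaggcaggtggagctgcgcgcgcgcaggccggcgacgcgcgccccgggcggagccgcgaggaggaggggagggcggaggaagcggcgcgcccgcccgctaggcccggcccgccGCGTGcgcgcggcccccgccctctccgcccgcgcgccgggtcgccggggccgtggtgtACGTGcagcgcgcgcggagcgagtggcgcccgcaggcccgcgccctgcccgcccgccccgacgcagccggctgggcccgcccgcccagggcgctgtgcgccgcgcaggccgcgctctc
Egln3 chr12:54203825-54204124, minus strand: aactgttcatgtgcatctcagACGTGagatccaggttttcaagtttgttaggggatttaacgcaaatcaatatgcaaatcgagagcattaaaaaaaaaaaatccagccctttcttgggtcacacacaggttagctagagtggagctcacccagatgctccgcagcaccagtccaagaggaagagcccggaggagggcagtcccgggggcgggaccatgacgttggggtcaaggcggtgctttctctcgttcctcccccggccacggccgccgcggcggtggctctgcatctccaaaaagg
Vhl chr6:113623744-113624043, plus strand: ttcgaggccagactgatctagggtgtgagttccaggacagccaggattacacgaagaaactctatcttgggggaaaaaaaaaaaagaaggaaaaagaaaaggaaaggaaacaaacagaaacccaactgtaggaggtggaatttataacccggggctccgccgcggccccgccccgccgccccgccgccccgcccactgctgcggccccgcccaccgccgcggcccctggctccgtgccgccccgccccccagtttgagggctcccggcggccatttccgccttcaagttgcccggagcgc
Egln2 chr7:27166753-27167052, minus strand: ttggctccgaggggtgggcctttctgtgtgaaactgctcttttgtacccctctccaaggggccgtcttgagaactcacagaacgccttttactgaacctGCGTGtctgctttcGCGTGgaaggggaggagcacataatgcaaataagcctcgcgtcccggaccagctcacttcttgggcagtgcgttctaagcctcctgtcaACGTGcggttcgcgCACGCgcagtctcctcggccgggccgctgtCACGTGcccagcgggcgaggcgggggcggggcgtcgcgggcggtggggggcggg
The Egln1 window held GCGTG at −126 and ACGTG at −68 relative to the start site, the Egln3 window held ACGTG at −229, and the Vhl window held neither. The Egln2 window held 6 matches, of which an ACGTG on each strand overlap in the letters CACGTG, and a second Egln2 window had 1. Of 32851 such windows of all genes, 43.8% held at least 1 match, 20.6% at least 2 and 0.694% at least 6. ACGTG was in 19.6% and GCGTG in 32.4% of them, with or without the other. Elsewhere, the Hif1a window had 3 matches, Hif3a 2 and Arnt 1, the Arnt2 and Hif1an windows had none, and no Epas1 window was available. The Hif1a window, chr12:73907617-73907916, lies inside the gene span given above, downstream of its first base. A match describes only the letters of the window, not binding, and the most matches were in Egln2, which did not rise with TPM as deposited.

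Egln1 (chr8:124908587-124949324, minus strand) encodes PHD2, the main prolyl hydroxylase for HIF-1α in normoxia. Its mRNA was at 38.2, 35.2 and 36.4 TPM in UN and rose to 281, 332 and 335 TPM in UH. In sorted cells it went from 50.7, 51.2 and 48.7 TPM in SN to 298, 309 and 281 TPM in SH. The hypoxic libraries were all at 281 TPM or more and the normoxic ones all at 51.2 TPM or less. These are log2 fold changes of 3.07 in UH vs UN (standard error 0.0873, adjusted p = 2.92e-09) and 2.54 in SH vs SN (adjusted p = 1.45e-08). The response of the sorted cells was smaller by 0.53 on the log2 scale (difference −0.53, standard error 0.123, adjusted p = 0.0107). In normoxia Egln1 was 1.37-fold higher in SN than in UN (log2 fold change 0.45, adjusted p = 0.00213), and in hypoxia SH vs UH gave −0.09 (standard error 0.0873, adjusted p = 0.446). With median-of-ratios scaling the SH vs UH value was −0.31 (adjusted p = 0.00888), and with quantile normalization it was 0.03, so the order of the hypoxic levels depended on the scaling.

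Egln2 (chr7:27158658-27166802, minus strand) encodes PHD1, a nuclear paralog. It was the most abundant prolyl hydroxylase mRNA in normoxia, at 65.0, 73.4 and 63.5 TPM in UN and 76.4, 70.8 and 68.7 TPM in SN. In hypoxia it was at 69.6, 71.2 and 61.0 TPM in UH and 50.9, 49.9 and 52.9 TPM in SH. UN and UH overlapped, with a ratio of mean TPM of 0.999 (adjusted p = 1), while SN lay wholly above SH. Egln2 fell in SH vs SN (log2 fold change −0.48, standard error 0.0924, adjusted p = 0.00146) and was lower in SH than in UH (log2 fold change −0.38, adjusted p = 0.00593). The hypoxia responses differed by −0.48 (standard error 0.131, adjusted p = 0.0230), but the difference did not pass without UN3, UH2, SN1 or SH2 in turn (adjusted p from 0.0524 to 0.0610). The UH vs UN value depended on the scaling, since median-of-ratios scaling gave a log2 fold change of 0.35 that passed (adjusted p = 0.0396). Cyp2t4, which overlaps Egln2 on the opposite strand, averaged 0.164 TPM.

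Egln3 (chr12:54178981-54203860, minus strand) encodes PHD3, the prolyl hydroxylase best known as strongly hypoxia-inducible. It was at 10.8, 24.2 and 27.5 TPM in UN and 114, 110 and 126 TPM in UH. The SN libraries held 3.12, 2.99 and 3.74 TPM and the SH libraries 30.2, 29.8 and 18.3 TPM. No UN library reached the UH range and no SN library the SH range, yet SH overlapped UN. Egln3 rose with log2 fold changes of 2.52 in UH vs UN (standard error 0.287, adjusted p = 2.53e-05) and 2.63 in SH vs SN (adjusted p = 2.92e-05), and these responses differed by 0.11 (standard error 0.406, adjusted p = 0.874). The level itself was 6.35-fold lower in SN than in UN (log2 fold change −2.26, adjusted p = 1.17e-04) and 4.47-fold lower in SH than in UH (log2 fold change −2.15, adjusted p = 1.18e-04). UN1 was the lowest UN library for Egln3, and without it the log2 fold change was 2.13 in UH vs UN and −2.65 in SN vs UN. Without SH3, the lowest SH library, SH vs SN gave 2.86. The fibroblast marker sum was lower in both sorted groups too. Within UN it was highest in UN1, where Egln3 was lowest. The part of this sum in the Egln3 difference was not tested.

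The makeup of prolyl hydroxylase mRNA differed with oxygen and between sorted and unsorted cells. The summed TPM of the 3 genes was 125 ± 9.61 (SD, n = 3) in UN and 125 ± 4.50 in SN, and reached 499.8 ± 30.7 in UH and 374 ± 19.0 in SH. Egln2 supplied 54.1% ± 3.73 of it in UN and 57.3% ± 1.16 in SN, and 13.5% ± 1.67 in UH and 13.7% ± 1.13 in SH. Egln1 was the majority in hypoxia, with 63.1% ± 2.27 in UH and 79.3% ± 0.614 in SH, against 29.5% ± 3.604 in UN and 40.0% ± 1.03 in SN. Egln3 contributed 16.4% ± 6.24 in UN, 23.4% ± 1.72 in UH, 2.63% ± 0.396 in SN and 6.94% ± 1.52 in SH. These shares are taken within a library and so do not change with a common factor per library, though quantile normalization could change them. The Egln1 share did not overlap in any of the 4 comparisons (exact two-sided permutation test, p = 0.1 each, the smallest possible), whereas the Egln3 share overlapped between UN and UH (p = 0.2). For each α-subunit transcript there were 1.02 ± 0.193 prolyl hydroxylase transcripts in UN, 5.003 ± 1.47 in UH, 1.90 ± 0.307 in SN and 8.08 ± 1.31 in SH (SD, n = 3), and the hypoxic groups did not overlap the normoxic ones.

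**Figure D3:**
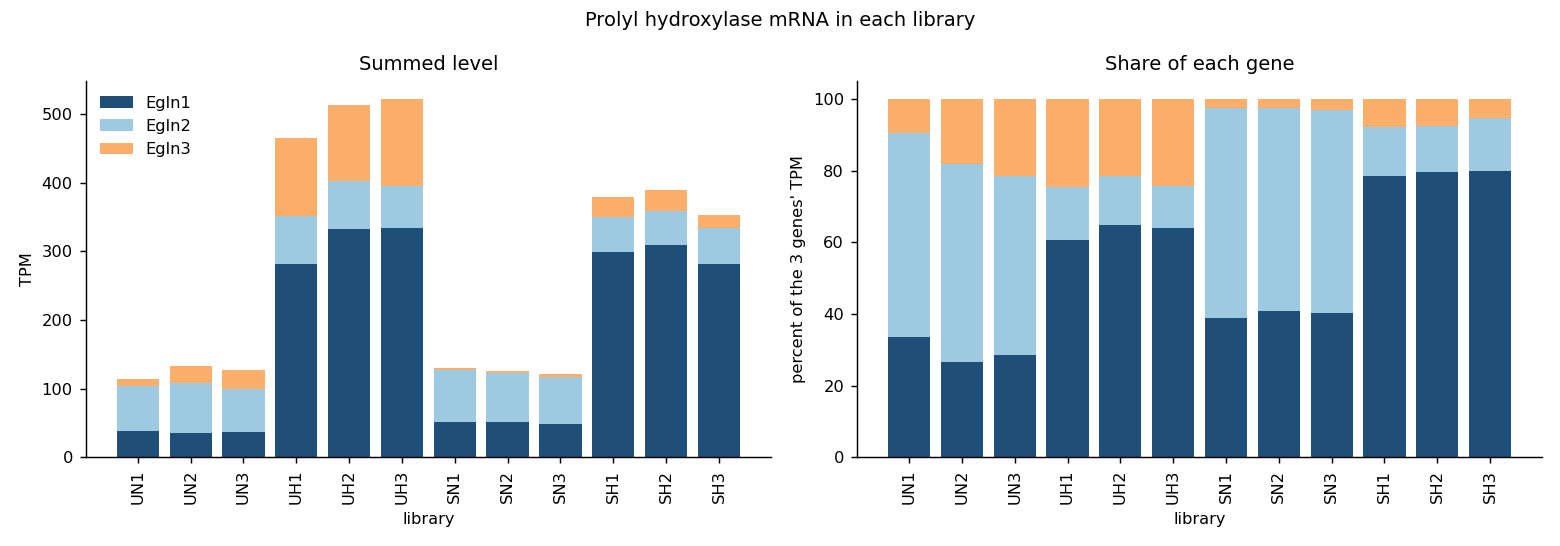
Prolyl hydroxylase mRNA in each of the 12 libraries as summed TPM (left, stacked bars from 0) and as percent of the sum (right). Egln2 is the widest band in normoxic libraries and Egln1 in hypoxic ones, and the Egln3 band is thin in SN and SH.

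Vhl (chr6:113623959-113631633, plus strand) encodes the subunit that recognizes hydroxylated HIF-α. It was at 12.8, 13.9 and 14.5 TPM in UN and 66.9, 63.3 and 67.4 TPM in UH, and at 11.5, 9.73 and 11.5 TPM in SN and 41.3, 42.0 and 21.3 TPM in SH. Hypoxic and normoxic libraries did not overlap, and SH3 was far below SH1 and SH2. Vhl rose in unsorted cells (log2 fold change 2.18, standard error 0.208, adjusted p = 6.69e-06) and in sorted cells (log2 fold change 1.53, adjusted p = 1.37e-04), and in hypoxia it was 1.89-fold lower in sorted cells (SH vs UH log2 fold change −0.96, adjusted p = 0.00311). Without SH3 these last values were 1.84 and −0.65. The difference between the hypoxia responses, −0.65 (standard error 0.294, adjusted p = 0.132), did not pass, and it became −0.99 with median-of-ratios scaling (adjusted p = 0.0223) and −0.94 with quantile normalization (adjusted p = 0.0303). In normoxia the SN libraries were below all UN libraries, with a log2 fold change of −0.31 that did not pass (adjusted p = 0.293), although it did when SH3 was left out of the shared fit (adjusted p = 0.0295).

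None of the other parts of the VHL ligase passed as higher with Vhl. Of 5 partners (Tceb2 and Tceb1, the elongins B and C, Cul2, Rbx1 and Nedd8), 3 passed as lower in each hypoxia comparison with TPM as deposited (Cul2, Rbx1 and Nedd8 in UH vs UN, Tceb1, Rbx1 and Nedd8 in SH vs SN), with median log2 fold changes of −0.43 and −0.53 against −0.19 and 0.03 over all genes tested, but in UH vs UN none of the 5 passed with median-of-ratios scaling or quantile normalization. In SH vs SN, Nedd8 did not pass with either (adjusted p = 0.0591 and 0.0789), and in UH vs UN it did not pass without UN1 (adjusted p = 0.0899). Rbx1 fell from 66.8 ± 2.39 to 49.5 ± 4.29 TPM in UH vs UN (SD, n = 3; log2 fold change −0.43, adjusted p = 0.00422, or −0.08 and adjusted p = 0.699 with median-of-ratios scaling) and from 76.8 ± 4.26 to 50.3 ± 5.55 TPM in SH vs SN (log2 fold change −0.60, adjusted p = 5.83e-04). Cul2, the scaffold, fell from 29.7 ± 4.81 to 16.8 ± 2.67 TPM in UH vs UN (log2 fold change −0.78, adjusted p = 0.00600, or −0.44 and adjusted p = 0.0677 with that scaling) and was at 42.3 ± 7.01 TPM in SN and 30.0 ± 7.74 TPM in SH (adjusted p = 0.0596, or 0.0451 with that scaling). There were 0.470 ± 0.0733 Vhl transcripts for each Cul2 transcript in UN and 3.97 ± 0.585 in UH, and 0.262 ± 0.0459 in SN and 1.21 ± 0.534 in SH.

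Hif1an (chr19:44562850-44576274, plus strand) encodes FIH. It was at 15.6 ± 1.19 TPM in UN, 12.5 ± 2.35 in UH, 17.9 ± 1.46 in SN and 16.8 ± 2.93 in SH (SD, n = 3), and the libraries overlapped within each hypoxia comparison. It did not pass in any comparison, with log2 fold changes of −0.31 in UH vs UN (adjusted p = 0.139), −0.10 in SH vs SN (adjusted p = 0.664), 0.19 in SN vs UN (adjusted p = 0.403) and 0.40 in SH vs UH (adjusted p = 0.0660). The ratio of Hif1an to Hif1a was 0.133 ± 0.00522 in UN, 0.126 ± 0.0207 in UH, 0.278 ± 0.0592 in SN and 0.362 ± 0.00852 in SH, without overlap between sorted and unsorted libraries.

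The values of several sensor genes depended on how the libraries were scaled. Over all genes tested, UH vs UN had a median of −0.19 on the log2 scale, with 1032 called higher and 2222 lower. Median-of-ratios scaling brought that median to 0 and the calls to 1564 and 1217. The values of Hif1a (−0.24), Arnt (−0.30) and Hif1an (−0.31) as deposited thus lay near that of the median gene. Egln1, Egln3 and Vhl passed as higher and Arnt2 as lower in both hypoxia comparisons under every scaling tried.

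**Figure D4:**
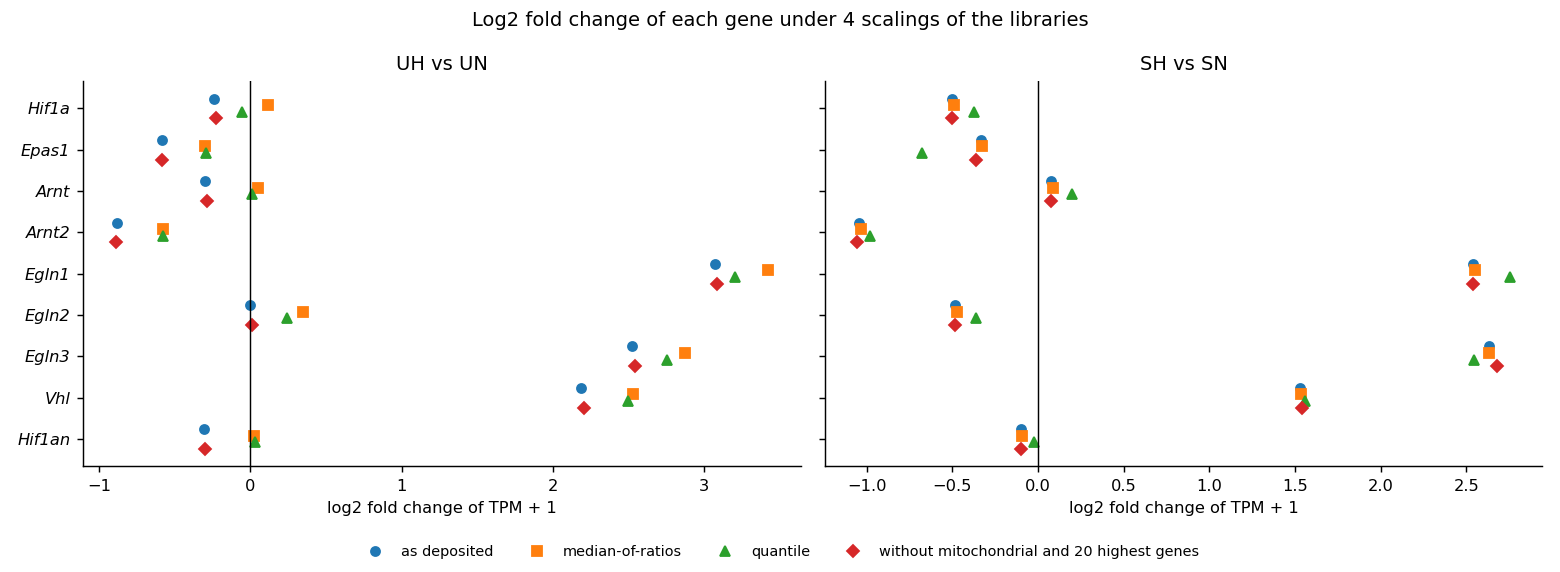
Log2 fold change of TPM + 1 of the 9 tested genes in UH vs UN and SH vs SN (horizontal axes) under 4 scalings, marked by shape. In UH vs UN, Hif1a lies at −0.24 as deposited and at 0.11 with median-of-ratios scaling, and Arnt, Egln2 and Hif1an also change side, while Egln1, Egln3, Vhl and Arnt2 keep theirs in both panels.

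Among other factors that act on HIF-α stability, 16 of 17 listed genes were tested, and 3 passed as higher (Os9, Siah2 and Mdm2) and 6 as lower in UH vs UN, and 5 as higher (with Gnb2l1 and Usp28 added) and 6 as lower in SH vs SN. Over all genes 13.0% and 33.5% passed in these directions in UH vs UN and 21.5% and 19.5% in SH vs SN, so in UH vs UN the list lay near the background. With median-of-ratios scaling the UH vs UN counts were 7 and 5. Siah2, a ubiquitin ligase that targets prolyl hydroxylases, rose from 7.96 ± 0.723 to 20.6 ± 0.713 TPM in UH vs UN (SD, n = 3; log2 fold change 1.27, adjusted p = 4.19e-05) and from 5.86 ± 0.700 to 13.9 ± 2.88 TPM in SH vs SN (log2 fold change 1.10, adjusted p = 1.69e-04). Os9, which has been linked to HIF-1α degradation, rose with log2 fold changes of 1.47 (adjusted p = 9.57e-06) and 0.68 (adjusted p = 0.00298). Uchl1, a deubiquitinase, fell from 122 ± 29.9 to 51.3 ± 10.3 TPM in UH vs UN (log2 fold change −1.22, adjusted p = 3.96e-04) and had −0.97 in SH vs SN (adjusted p = 0.00243). Mdm2, the p53 ubiquitin ligase, rose by 0.98 in UH vs UN (adjusted p = 4.08e-04) and by 1.37 in SH vs SN (adjusted p = 4.99e-05).

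Of 10 HIF coactivators and their competitors, 3 passed as higher (Pkm, Cited1 and Cited2) and 2 as lower (Ruvbl1 and Ncoa2) in UH vs UN, and 2 (Pkm and Ruvbl2) and 1 (Ruvbl1) in SH vs SN, where 2 of 10 as higher is close to the 21.5% of all genes. The shares of all genes were 13.0% higher and 33.5% lower in UH vs UN and 19.5% lower in SH vs SN. Pkm, pyruvate kinase and a described HIF-1 coactivator, rose from 1717 ± 64.1 to 4807 ± 76.5 TPM and from 2568 ± 46.9 to 5402 ± 121 TPM (SD, n = 3; log2 fold changes 1.48 and 1.07, adjusted p = 2.17e-07 and 4.10e-06). Ruvbl1, a chromatin ATPase, fell by 1.30 and 1.26 on the log2 scale (adjusted p = 9.87e-06 and 2.13e-05). The coactivators proper, Ep300 and Crebbp, did not pass in either hypoxia comparison, with log2 fold changes from −0.41 to −0.09. Of 9 tested bHLH-PAS proteins outside the HIF family, 4 passed as higher (Npas1, Npas2, Sim2 and Arntl) and 2 as lower (Ahr and Clock) in UH vs UN, and 2 (Sim2 and Arntl) and 1 (Ahr) in SH vs SN, against those same shares of all genes. Npas1, a neuronal member, was at 0.239 ± 0.152 TPM in UN and 16.6 ± 2.02 TPM in UH (log2 fold change 3.83, adjusted p = 1.26e-08) but at 0.361 ± 0.118 in SN and 0.203 ± 0.0867 in SH (log2 fold change −0.18, adjusted p = 0.375). Sim2 rose in both, by 1.19 and 1.01 (adjusted p = 2.72e-05 and 1.30e-04), and Ahr, the dioxin receptor that also pairs with ARNT, fell by 1.28 in UH vs UN (adjusted p = 0.00519) and by 0.95 in SH vs SN (adjusted p = 0.0290), where it did not pass without SN1, SN3, SH1 or SH3.

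Of the other oxygen-dependent dioxygenases, 2 of 8 passed as higher (Jmjd6 and Asph) and 2 as lower (Asphd2 and Mina) in UH vs UN (4 and 1 with median-of-ratios scaling), and 3 (with Ogfod2 added) and 2 (Ado and Mina) in SH vs SN. The genes that passed as lower were about as frequent as among all genes (33.5% in the unsorted and 19.5% in the sorted cells), and 13.0% and 21.5% of all genes passed as higher. Jmjd6, a JmjC-domain hydroxylase, rose from 93.8 ± 4.96 to 479.8 ± 13.4 TPM and from 88.7 ± 1.83 to 369 ± 48.1 TPM (SD, n = 3; log2 fold changes 2.34 and 2.03, adjusted p = 1.88e-08 and 9.71e-08). Asph, which hydroxylates aspartate and asparagine in EGF-like domains, rose from 20.99 ± 1.33 to 88.4 ± 15.7 TPM and from 15.3 ± 1.37 to 90.2 ± 19.5 TPM (log2 fold changes 2.01 and 2.46, adjusted p = 2.45e-06 and 1.02e-06). Its relative Asphd2 fell by 1.36 in UH vs UN (adjusted p = 0.00284) and had −0.21 in SH vs SN (adjusted p = 0.624).

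The enzymes that make or use 2-oxoglutarate, succinate and fumarate, the cosubstrate and inhibitors of these hydroxylases, were lower in hypoxia. Of 21 genes, 18 passed as lower and none as higher in both comparisons (14 and 18 with median-of-ratios scaling), with 7 and 5 of them called, where 33.5% and 19.5% of all genes passed as lower. The medians of the 21 stood at −0.93 and −0.70 on the log2 scale, against −0.19 and 0.03 over all genes. Idh1, the cytosolic isocitrate dehydrogenase, fell by 1.85 in UH vs UN (adjusted p = 4.29e-06) and by 1.52 in SH vs SN (adjusted p = 2.93e-05), and Idh3a, of the mitochondrial enzyme, fell by 1.82 and 1.51 (adjusted p = 1.98e-07 and 1.35e-06). Idh2 fell by 1.51 and 1.01 (adjusted p = 1.73e-06 and 5.52e-05) and Ogdh, which consumes 2-oxoglutarate in the citric acid cycle, by 1.18 and 1.09 (adjusted p = 2.59e-06 and 8.10e-06). The share of TPM from mitochondrially encoded genes was also lower in hypoxia, at 5.18% to 7.55% in UN, 1.67% to 2.53% in UH, 7.64% to 8.38% in SN and 2.66% to 4.68% in SH. With TPM rescaled without these and the 20 highest genes, 18 of the 21 still passed as lower in each comparison. The medians were then −0.92 and −0.70. Any other link between this share and the 21 genes was not tested.

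Established HIF target genes outside the sensor itself give the scale of the response. Of 35 listed, 33 were tested, and 31 passed as higher and 1, Pfkfb4, as lower in UH vs UN, with a median log2 fold change of 3.07, and 30 passed as higher and none as lower in SH vs SN, with a median of 2.34. The values were 3.07 and 2.54 for Egln1, 2.52 and 2.63 for Egln3 and 2.18 and 1.53 for Vhl. In UH vs UN, Egln1 lay just above the median (3.072 against 3.067), and Egln3 and Vhl lay below it. For SH vs SN, Egln1 and Egln3 lay above it and Vhl below. The highest values were those of Pgf, a placental growth factor (6.83, adjusted p = 8.33e-09), and Ero1l, an oxidase of the endoplasmic reticulum (5.51, adjusted p = 1.26e-08), in UH vs UN, and of Ero1l (5.50, adjusted p = 1.82e-08) and Ankrd37 (4.87, adjusted p = 1.00e-07) in SH vs SN. Pgf rose less in sorted cells. Over the other settings and with a library left out, its log2 fold change was 1.05 to 2.11 in SH vs SN and 6.78 to 8.19 in UH vs UN. The mitophagy receptor Bnip3 rose by 4.01 and 3.98 on the log2 scale (adjusted p = 1.60e-08 and 2.77e-08). The difference of the hypoxia responses, sorted minus unsorted, passed for 8 of the 33 targets, all with a negative value, and among the sensor genes for 2 of 9, Egln1, which rose less in sorted cells, and Egln2, which fell in sorted cells and had a log2 fold change near 0 in unsorted ones. Over all genes tested, 4.51% passed with a negative and 17.4% with a positive difference, and the median was 0.25. That background depended on the scaling, since with median-of-ratios scaling the median was 0.024 and the genes called went from 412 negative and 1527 positive to 782 and 901. None of the sensor genes was called by this contrast, against 10.3% of all genes.

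**Figure D5:**
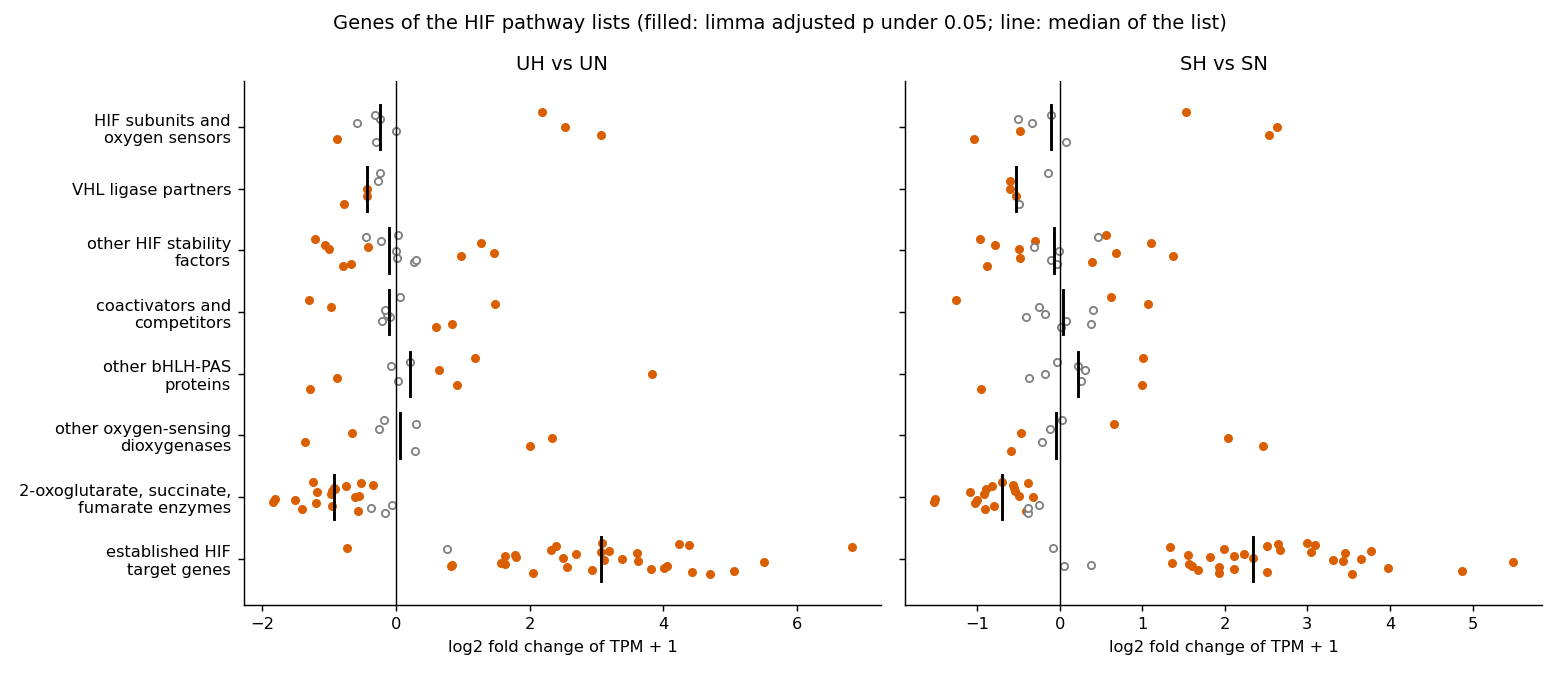
Log2 fold change of TPM + 1 (horizontal axes) of the tested genes of each HIF pathway list in UH vs UN and SH vs SN; points are genes, filled where the limma adjusted p was below 0.05, and black lines are list medians. The target genes center on 3.07 and 2.34 and the 2-oxoglutarate, succinate and fumarate enzymes on −0.93 and −0.70, while the HIF subunits and sensors spread over both sides.

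The genes whose profile over the 12 libraries was most like that of each sensor gene were found by Pearson's r of log2(TPM + 1) among 13566 genes with a mean of at least 1 TPM. The libraries fall into 4 groups, so r mainly describes the group means and carries no p. Egln1 was most like Gbe1 (r = 0.999), a glycogen branching enzyme, Map2k1 (r = 0.996) and Hk1 (r = 0.996). Egln3 was most like the collagen lysyl hydroxylase Plod1 (r = 0.997), Zdhhc9 (r = 0.992) and Usp13 (r = 0.989), and Vhl was most like 2310047M10Rik (r = 0.992), Ppp1r3b (r = 0.991) and Reep1 (r = 0.990). Arnt2 was most like Traf3ip1 (r = 0.986), B130055M24Rik (r = 0.985) and Sema4b (r = 0.984). For Hif1a the nearest was Strn3 (r = 0.968), for Epas1 Rtp4 (r = 0.978), for Arnt Zfp507 (r = 0.965), for Egln2 Dpp3 (r = 0.950) and for Hif1an Cdk19 (r = 0.956). Among the sensor genes themselves, r was 0.901 for both Egln1 and Egln3 with Vhl, 0.934 for Hif1a with Epas1, and −0.955 for Arnt2 with Egln3.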

How the data were processed

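RNA-seq was performed on 12 libraries, 3 in each group. Stranded, paired-end mRNA reads were processed by the authors with nf-core/rnaseq 3.12.0 and build mm10, per the labels, and the authors deposited TPM per gene, which sum to 1000000 in each library. The aligner and annotation release were not given in the sources used here. TPM hold no read counts, so depth is unknown, no counting intervals are given, and precision rests on 3 libraries. limma 3.58.1 in R 4.3.3 (empirical Bayes with a trend, 1 mean per group) was fitted to log2(TPM + 1) of 18909 genes with a mean of at least 0.1 TPM, with Benjamini-Hochberg adjustment over all of them. Folds on this scale are understated for low genes. The difference of hypoxia responses was (SH − SN) − (UH − UN). Shares were compared by exact permutation (scipy 1.17.1). Coordinates came from GENCODE M21 (GRCm38), where 45143 identifiers were found, and promoters from RefSeq. The script was tested on simulated data. Named genes were the 10 sensor genes, up to 3 called genes with the largest change per pathway list and hypoxia comparison, and the 3 most similar profiles per gene, not all printed; other genes were named after their values were seen. The genes and lists were chosen with earlier results of these data known. Alternatives were another pseudocount, other filters, 3 other scalings, a replicate block, moderation without a trend, the compared groups alone, no fold threshold, and each library left out.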

Additional observations from a re-analysis of the deposited data

Results flagged for a closer look

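Of the 9 tested genes, Egln1 and Egln2 responded differently to low oxygen in sorted and unsorted cells by the interaction contrast of limma. For Egln1 the difference was −0.53 on the log2 scale (standard error 0.123, adjusted p = 0.0107). All hypoxic libraries lay above all normoxic ones, and the normoxic level was higher in sorted cells. For Egln2 the difference was −0.48 (standard error 0.131, adjusted p = 0.0230). All SH libraries lay below all SN libraries, while UH and UN overlapped. Without UN3, UH2, SN1 or SH2 in turn, the Egln2 difference did not pass.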

How the results depend on the processing

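Under 9 alternatives, 374 of 396 values of the sensor genes kept their direction and side of the threshold, and 518 of 540 did when 1 library was left out. Of the others, none that had passed changed direction, and the cause was not tested. Median-of-ratios scaling gave log2 fold changes of 0.11 (Hif1a), 0.051 (Arnt), 0.35 (Egln2) and 0.026 (Hif1an) in UH vs UN, and differences between the hypoxia responses of −0.025 (Epas1), −0.24 (Egln3) and −0.12 (Hif1an). Quantile normalization gave 0.011 (Arnt), 0.24 (Egln2) and 0.031 (Hif1an) in UH vs UN, 0.032 (Egln1) in SH vs UH, and differences of −0.38 (Epas1), −0.21 (Egln3) and −0.056 (Hif1an). Without mitochondrially encoded genes and the 20 highest genes, Egln2 was at 0.0094 in UH vs UN and Arnt at 0.033 in SH vs UH. Leaving out a library gave −0.46 to 0.034 (Hif1a) and −0.043 to 0.066 (Egln2) in UH vs UN, −0.0091 to 0.23 (Arnt) and −0.19 to 0.041 (Hif1an) in SH vs SN, −0.24 to 0.17 (Arnt) in SH vs UH, and differences of −0.052 to 0.41 (Epas1) and −0.13 to 0.50 (Egln3). Hif1an passed in SH vs UH without UH3 (adjusted p = 0.0293) or SH3 (adjusted p = 0.0191), as did Hif1a in SH vs SN without UH1 (adjusted p = 0.0293). Epas1 passed in SH vs SN with quantile normalization (−0.67, adjusted p = 0.0465) and Hif1an in SH vs UH without the highest genes (0.44, adjusted p = 0.0390). Ahr in SH vs SN did not pass without SN1, SN3, SH1 or SH3 (−0.73 to −1.02) or with no filter on low values (adjusted p = 0.0511).

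Counts of genes called higher and lower moved as follows. With a pseudocount of 0.1 they were 1580 higher in UH vs UN, 2854 higher in SH vs SN, 990 and 2402 in SN vs UN and 2810 and 1550 in SH vs UH. Median-of-ratios scaling gave 1564 and 1217 in UH vs UN and 901 and 782 for the difference of responses, and quantile normalization gave 1343 lower in UH vs UN and 772 and 745 for the difference. With no fold threshold they were 2453 and 6326, 4062 and 3694, 2455 and 3956, 5355 and 2528, and 3298 and 853 for the difference. Without UN1, 636 genes were called lower for the difference, and the range over libraries left out was 335 to 636. Among the sensor genes, 1 (Arnt2) was called lower in UH vs UN with a pseudocount of 0.1, or without UN2 (range 0 to 1). None was called lower in SH vs SN with quantile normalization or without SH3, and none higher in SH vs UH with median-of-ratios or quantile scaling or without UH1, SH1 or SH2 (range 0 to 1 for each). With no fold threshold 1 passed as lower in UH vs UN, 2 in SH vs SN, 5 in SH vs UH and 2 for the difference, and 2 as higher in SN vs UN. Same-numbered libraries had correlated deviations of −0.0631 to 0.141 and were not taken as pairs; a replicate block left 1032 genes called as higher and 2224 as lower for UH vs UN, and changed no count of called sensor genes. With depth unknown, how far counting error limits the lowest genes, Hif3a and Epas1, cannot be given.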
